A study of Homo sapiens with 12 samples.

Results

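The 39 genes described here encode lysosomal hydrolases, lysosomal membrane proteins, subunits of the lysosomal proton pump, autophagy proteins and the nutrient-sensing proteins that act on the lysosome surface. They were chosen by gene symbol, with earlier results of these data known, and 35 of the 39 were among the 10945 named genes of the deposited count table. The other 4 (CTSZ, MCOLN1, GABARAP and RRAGD) were not analysed here. The cells were HepG2, an established human hepatocellular carcinoma line labelled as wild type, which stands as a model of the hepatocyte in a single tumour-derived line. Cells kept in EMEM were seeded in EMEM, moved 24 h later into Plasmax, HGDMEM, LGDMEM or fresh EMEM, given new medium after 48 h and harvested at 96 h, with 10% heat-inactivated fetal bovine serum in every medium. EMEM is a minimal essential medium and, as the medium of maintenance, is the medium the others are set against. HGDMEM and LGDMEM are the high-glucose and low-glucose forms of DMEM, and Plasmax is a medium formulated to resemble the nutrient composition of human plasma. Each medium had 3 QuantSeq libraries, which count the 3′ ends of polyadenylated transcripts. The labels do not say whether they are separate cultures. The p-values cover the spread among these libraries, which may be technical.

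Lysosomes are acidic organelles in which proteases, glycosidases and lipases break down material delivered by endocytosis and by autophagy. A vacuolar-type ATPase pumps protons into the organelle and keeps the hydrolases active. In autophagy, cytoplasmic cargo such as protein aggregates or ferritin is bound by receptors and enclosed by membranes that carry lipid-linked proteins of the LC3 and GABARAP families, and the vesicle then fuses with a lysosome. In liver cells the pathway releases amino acids in fasting, iron from ferritin, and cholesterol from lipoproteins taken up at the cell surface. The Rag GTPases and folliculin on the lysosome surface pass amino acid supply to the kinase complex mTORC1, which restrains autophagy. When mTORC1 is less active, the transcription factors TFEB and TFE3 enter the nucleus and bind an E-box element, named CLEAR, in the promoters of many of these genes.

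Because the CLEAR element is the sequence feature best known for this gene set, the RefSeq promoters (GRCh38.p14, from 250 bases before to 50 bases after the gene start) were searched for its core CACGTG and for the extended form TCACGTGA. Both are palindromes, so a match reads the same on both strands, and every extended match is also a core match. Promoters were found for 24 of the 35 measured genes (68.6%). The others were CTSB, HEXA, NAGLU, ASAH1, PSAP, LAMP2, ATP6V1A, ATP6V1B2, ATP6V1H, ATP6V0E1 and UVRAG. A comparison of the gene set with all promoters is therefore void, since under 80% of the set had a sequence, and the counts stand as a description. The core occurred in 8 of the 24 promoters (CTSA, CTSD, GAA, NEU1, LAMP1, CD63, ATP6V0D1 and RRAGC), and it occurred in 7.43% of all 27305 promoters of the table. The extended form occurred in 4 of the 24 (CTSA, GAA, LAMP1 and ATP6V0D1) and in 1.04% of all promoters. Among the 9 genes that were called in Plasmax against all 3 other media, 3 had a core match: CTSD and CD63, which were higher in Plasmax, and NEU1, which was lower. TPP1, LIPA, GLA and GABARAPL1 had no match in the window, and CTSB and PSAP had no sequence. The stretch around each match is shown from its own strand, with the core in capitals. All 3 genes lie on the minus strand, at chr11:1763944-1763999 (CTSD), chr12:55729159-55729214 (CD63) and chr6:31862917-31862972 (NEU1).
CTSD: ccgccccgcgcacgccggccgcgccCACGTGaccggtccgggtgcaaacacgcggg
CD63: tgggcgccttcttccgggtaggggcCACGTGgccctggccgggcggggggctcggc
NEU1: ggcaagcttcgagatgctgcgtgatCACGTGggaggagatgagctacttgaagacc
The match began 47 bases before the gene start in CTSD, 180 bases before it in CD63 and 126 bases before it in NEU1. None of these 3 matches had the extended form, and a match of letters is not evidence of binding. Whether the core bears on the direction of change was not tested.

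Counts in named genes came to 3995365 to 5840057 per library. Levels are given as CPM, counts scaled to a common library total, after TMM scaling, so each level is a share of the library, and in a bulk culture fewer cells of a kind and less RNA per cell cannot be told apart. The first principal component (37.1% of variance) placed the Plasmax libraries at 52.9 to 59.4 and the other 9 libraries at −29.0 to −3.47. The second (9.95%) set 1 library, LGDMEM 3, apart at −51.8, with the others between −11.0 and 14.7, and each log2 fold change of Plasmax against LGDMEM is given below with and without that library. All 8 hepatocyte markers were in the table, with summed levels of 14517 ± 766 CPM in Plasmax, 24332 ± 1322 CPM in HGDMEM, 23230.2 ± 1707 CPM in LGDMEM and 22199.7 ± 382 CPM in EMEM. ALB, APOA2, TTR and TF were called lower (edgeR, adjusted p under 0.05) in Plasmax against all 3 other media and APOA1 against EMEM, while SERPINA1 was called higher against all 3, FGB was called higher against LGDMEM and APOB was not called. Of the leukocyte markers 4 of 6 were measured, and their sum was 2298 ± 118 CPM in Plasmax, 2992 ± 244 CPM in HGDMEM, 2581 ± 408 CPM in LGDMEM and 3134 ± 347 CPM in EMEM. LYZ, which made up most of it, was called lower against EMEM and HGDMEM, CD74 was called higher against LGDMEM and HGDMEM, CD68 was called higher against EMEM, and CD14, at 3.56 ± 1.44 CPM in Plasmax and 3.93 ± 1.41 CPM in EMEM, was not called. None of the 4 endothelial markers was in the table. The 3 stromal markers measured, of 5, summed to 82.8 ± 12.8 CPM in Plasmax, 56.9 ± 8.32 CPM in HGDMEM, 43.8 ± 11.9 CPM in LGDMEM and 52.9 ± 8.08 CPM in EMEM (SD, n = 3 each). ACTA2, most of that sum, was called higher against EMEM and LGDMEM and COL1A1 against HGDMEM, and PDGFRB was called lower against all 3. Without LGDMEM 3, the calls of TTR, FGB and PDGFRB against LGDMEM were lost. The part that these shifts have in the results below was not tested.

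In Plasmax the lysosome and autophagy genes changed in both directions. Against EMEM, 10 of the 35 genes rose and 5 fell. Against LGDMEM, 10 rose and 6 fell, or 11 and 5 without LGDMEM 3, and against HGDMEM, 11 rose and 5 fell. A gene is called here when its adjusted p in edgeR's quasi-likelihood test, corrected by Benjamini and Hochberg's method over all 10945 genes, is under 0.05. Wherever genes are counted, rose and fell mean called higher and called lower. These counts correspond to 42.9%, 45.7% and 45.7% of the genes, beside 22.1%, 21.2% and 26.9% of all genes called in the same comparisons. Because the genes were chosen with earlier results of these data known, their shares are a description and no test of the pathway. Called higher were 10.0% of all genes against EMEM, 9.48% against LGDMEM and 12.8% against HGDMEM, and called lower were 12.1%, 11.7% and 14.1% in the same order. The genes described were more abundant than most, with a median of 66.9 CPM beside 22.6 CPM for all genes, and among genes averaging 5 CPM or more, 25.1%, 24.1% and 30.4% were called.

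The median log2 fold change of the 35 genes was 0.32 against EMEM, 0.20 against LGDMEM (0.27 without LGDMEM 3) and 0.038 against HGDMEM, beside 0.015, 0.0015 and 0.014 for all genes. The 3 comparisons share the Plasmax libraries, so they are not independent of each other. In all 3, CTSB, CTSD, TPP1, PSAP, CD63 and GABARAPL1 rose, and GLA, NEU1 and LIPA fell. The 3 Plasmax libraries stood above all 9 other libraries for 8 of the 35 genes (CTSB, TPP1, HEXA, PSAP, LAMP2, SCARB2, SQSTM1 and GABARAPL1), beside 10.9% of all genes. They stood below all 9 others for NEU1 and LIPA, beside 11.3% of all genes. Added together, the 35 genes held 5918 ± 185 CPM in Plasmax, 4921 ± 107 CPM in HGDMEM, 5066 ± 479 CPM in LGDMEM and 4446 ± 378 CPM in EMEM (SD, n = 3 each). PSAP, CD63 and CTSB, which rose in all 3 comparisons, were the most abundant of the 35 and weigh most in this sum. The test over the 4 media called 19 of the 35 genes, beside 22.9% of all genes.

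**Figure D1:**
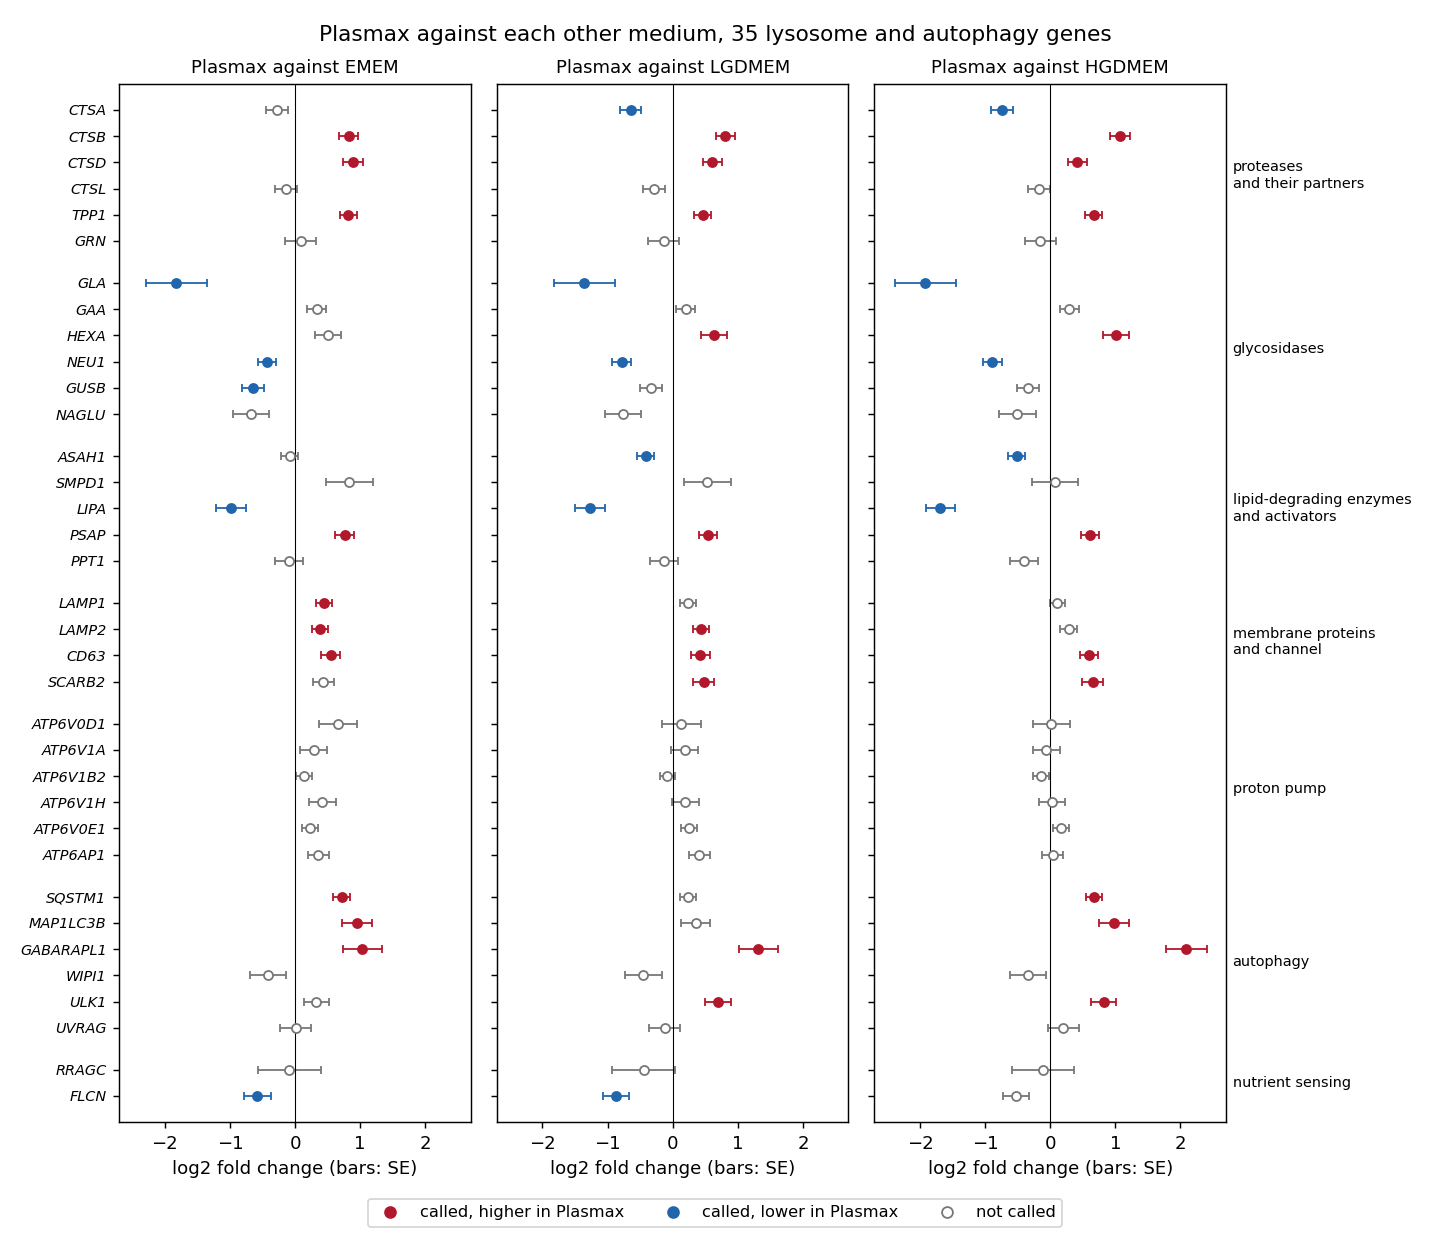
Log2 fold change in Plasmax against EMEM, LGDMEM and HGDMEM (points, horizontal axis) of the 35 genes grouped by role (rows), with bars of 1 standard error and filled points for genes at an adjusted p under 0.05. The membrane proteins and the called autophagy genes lie to the right of 0, the glycosidases and lipid-degrading enzymes lie on both sides, and no proton pump subunit is filled.

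The proteases rose in part. Against each of the 3 other media, CTSB, CTSD and TPP1 rose, that is 3 of the 6 measured genes for proteases and their partners, GRN being a partner. Against LGDMEM and HGDMEM 1 of the 6, CTSA, fell. Of all genes, 10.0%, 9.48% and 12.8% were called higher against EMEM, LGDMEM and HGDMEM, and 12.1%, 11.7% and 14.1% were called lower. Summed, the 6 genes held 1601 ± 90.9 CPM in Plasmax, 1323 ± 111 CPM in HGDMEM, 1372 ± 113 CPM in LGDMEM and 1191 ± 136 CPM in EMEM (SD, n = 3 each). CTSB alone averaged 777 ± 33.8 CPM in Plasmax, 370 ± 12.8 CPM in HGDMEM, 445 ± 122 CPM in LGDMEM and 439 ± 34.2 CPM in EMEM. The sum therefore largely follows CTSB and does not stand for each gene.

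CTSB encodes cathepsin B, a cysteine protease. It had 812, 775 and 744 CPM in Plasmax, 364, 361 and 384 CPM in HGDMEM, 356, 394 and 584 CPM in LGDMEM, and 401, 467 and 451 CPM in EMEM. CTSB was higher in every Plasmax library than in any other library, and LGDMEM 3 was the highest of the rest. CTSB rose in Plasmax with log2 fold changes of 0.82 ± 0.15 against EMEM (adjusted p = 0.000592), 0.80 ± 0.15 against LGDMEM (adjusted p = 0.000723, and 1.05 without LGDMEM 3) and 1.07 ± 0.15 against HGDMEM (adjusted p = 3.29e-05), where ± is the standard error (SE) here and below, and the value without LGDMEM 3 is the log2 fold change when that library is left out. CTSD, the gene of the aspartic protease cathepsin D, had 150.4, 133 and 157 CPM in Plasmax, 100.3, 95.2 and 134 CPM in HGDMEM, 95.9, 85.3 and 107 CPM in LGDMEM, and 70.9, 80.5 and 85.4 CPM in EMEM. Plasmax 2 and HGDMEM 3 were nearly level, while the Plasmax libraries did not overlap those of LGDMEM or EMEM. CTSD rose with log2 fold changes of 0.89 ± 0.15 against EMEM (adjusted p = 0.000377), 0.61 ± 0.15 against LGDMEM (adjusted p = 0.00693, and 0.69 without LGDMEM 3) and 0.42 ± 0.15 against HGDMEM (adjusted p = 0.0447). TPP1, a tripeptidyl peptidase whose loss causes a neuronal lipofuscinosis of childhood, had 119, 131 and 144 CPM in Plasmax, 80.1, 82.1 and 85.9 CPM in HGDMEM, 87.3, 98.5 and 100.3 CPM in LGDMEM, and 70.9, 75.8 and 76.6 CPM in EMEM. No library outside Plasmax reached the lowest Plasmax value. TPP1 rose with log2 fold changes of 0.82 ± 0.13 against EMEM (adjusted p = 0.000174), 0.46 ± 0.13 against LGDMEM (adjusted p = 0.0139, and 0.50 without LGDMEM 3) and 0.67 ± 0.13 against HGDMEM (adjusted p = 0.000721).

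CTSA encodes a serine carboxypeptidase, also called protective protein, that binds and stabilises the sialidase NEU1. It had 345, 213 and 267 CPM in Plasmax, 412, 508 and 458 CPM in HGDMEM, 454, 482 and 356 CPM in LGDMEM, and 285, 378 and 337 CPM in EMEM. The Plasmax libraries lay below all HGDMEM and LGDMEM libraries and overlapped those of EMEM. CTSA fell with log2 fold changes of −0.65 ± 0.16 against LGDMEM (adjusted p = 0.00881, and −0.77 without LGDMEM 3) and −0.74 ± 0.16 against HGDMEM (adjusted p = 0.00264). The CTSA value against EMEM was −0.28 ± 0.16 (adjusted p = 0.248). The last 500 bases of CTSA overlap exons of PLTP on the opposite strand in the annotation. Whether the counting used strand is not given in the sources used here, so reads of the pair cannot be told apart. PLTP, named because of this overlap, had log2 fold changes of −0.75 against EMEM (adjusted p = 0.01003), −0.86 against LGDMEM (adjusted p = 0.00420, and −0.85 without LGDMEM 3) and −0.98 against HGDMEM (adjusted p = 0.00114). CTSL, another cysteine protease with 5 annotated pseudogenes that could share its reads, averaged 60.2 ± 14.2 CPM in Plasmax, 67.7 ± 3.62 CPM in HGDMEM, 73.4 ± 11.6 CPM in LGDMEM and 66.3 ± 5.63 CPM in EMEM. GRN, which encodes progranulin, a partner that lysosomal enzymes bind, averaged 211 ± 28.4 CPM in Plasmax, 234 ± 87.1 CPM in HGDMEM, 232 ± 28.7 CPM in LGDMEM and 199 ± 68.3 CPM in EMEM. Neither was called in a comparison with Plasmax, the smallest adjusted p being 0.266. The call of CTSD against HGDMEM was lost without Plasmax 1, Plasmax 3, HGDMEM 1 or HGDMEM 2 and under a fit that kept rows without a symbol (adjusted p between 0.0567 and 0.188). That of TPP1 against LGDMEM was lost without Plasmax 3 (adjusted p = 0.0669) or LGDMEM 1 (adjusted p = 0.0580). That of CTSA against LGDMEM was lost without Plasmax 2 (adjusted p = 0.0573).

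**Figure D2:**
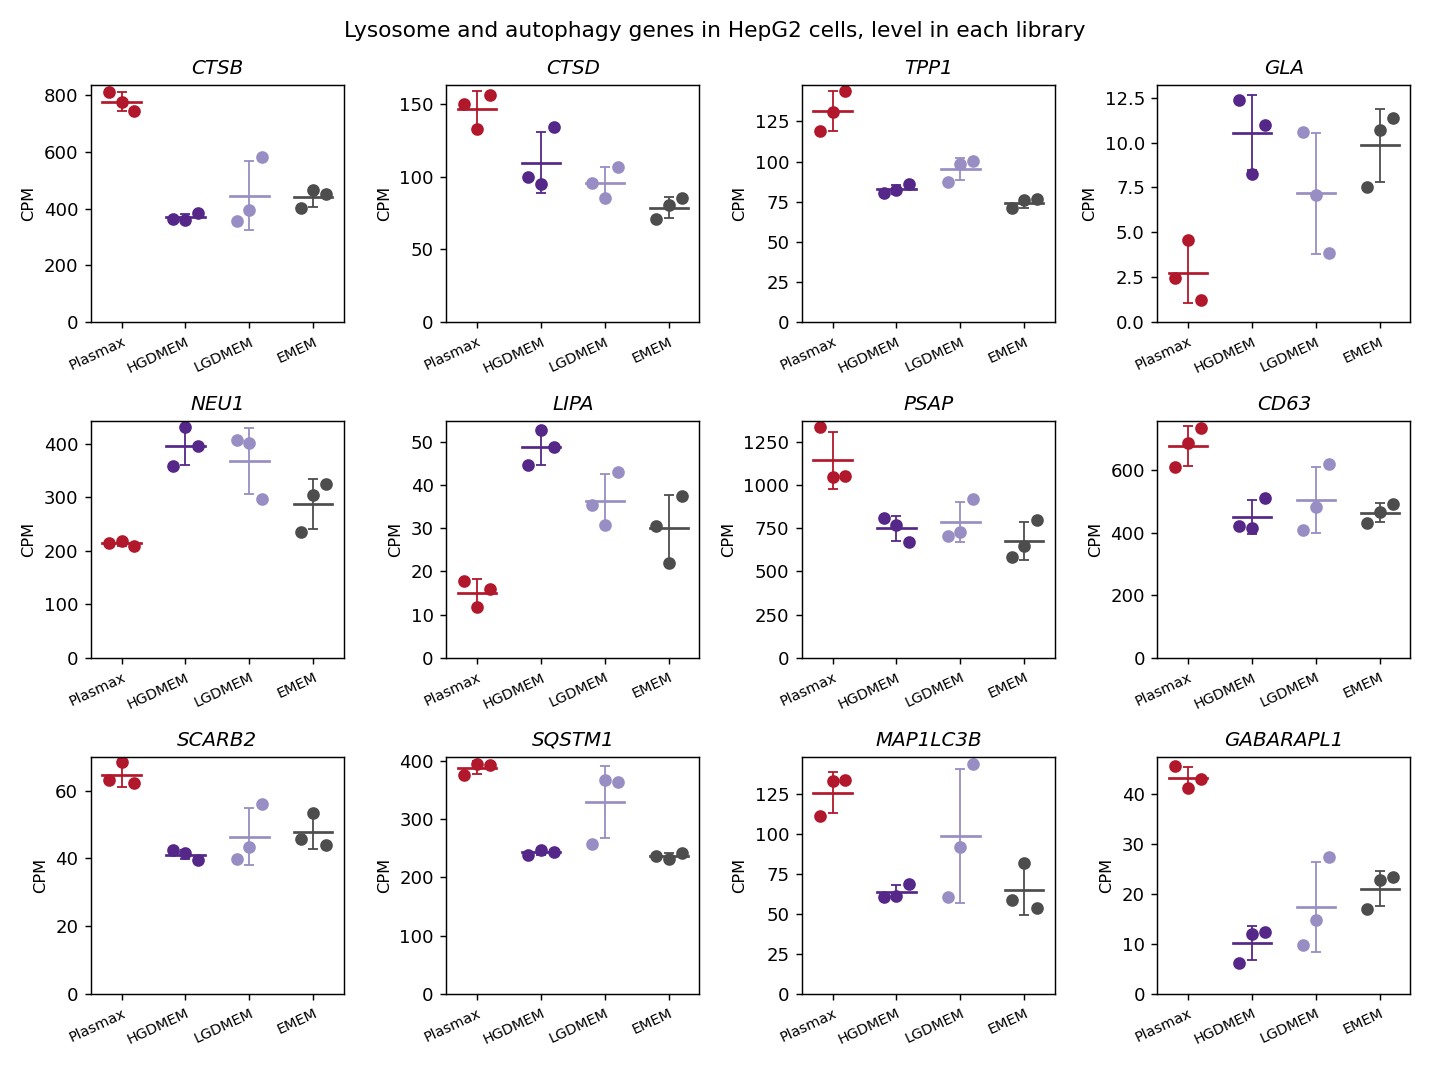
Level in CPM (vertical axis, from 0) of 12 of the genes in each library, by medium (horizontal axis), with a line at the mean and bars of 1 SD (n = 3). The Plasmax points lie above all others for CTSB, TPP1, PSAP, SCARB2, SQSTM1 and GABARAPL1 and below all others for NEU1 and LIPA, and the LGDMEM points of MAP1LC3B spread from 60.6 to 144 CPM.

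Among the glycosidases, falls outnumbered rises. Against EMEM 3 of the 6 were called lower (GLA, NEU1 and GUSB) and none was called higher. Against LGDMEM and against HGDMEM GLA and NEU1 fell and HEXA rose. Called lower were 12.1%, 11.7% and 14.1% of all genes against EMEM, LGDMEM and HGDMEM, and called higher were 10.0%, 9.48% and 12.8%. The 6 genes together held 417 ± 15.9 CPM in Plasmax, 581 ± 37.5 CPM in HGDMEM, 565 ± 51.1 CPM in LGDMEM and 495 ± 49.1 CPM in EMEM (SD, n = 3 each). NEU1 alone averaged 214 ± 5.18 CPM in Plasmax, 396 ± 36.1 CPM in HGDMEM, 368 ± 61.9 CPM in LGDMEM and 288 ± 46.5 CPM in EMEM. The differences in the sum thus largely follow NEU1 and do not show a fall of the whole group.

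GLA, which encodes alpha-galactosidase A, the enzyme deficient in Fabry disease, had 2.47, 4.55 and 1.24 CPM in Plasmax, 12.4, 8.28 and 11.0 CPM in HGDMEM, 10.6, 7.08 and 3.85 CPM in LGDMEM, and 7.52, 10.7 and 11.4 CPM in EMEM. These levels are low, and the highest Plasmax value lay above the lowest LGDMEM value, that of LGDMEM 3. GLA fell with log2 fold changes of −1.82 ± 0.46 against EMEM (adjusted p = 0.00837), −1.36 ± 0.47 against LGDMEM (adjusted p = 0.0472, and −1.66 without LGDMEM 3) and −1.91 ± 0.46 against HGDMEM (adjusted p = 0.00474). NEU1, a sialidase that removes terminal sialic acids, had 214, 219 and 209 CPM in Plasmax, 359, 432 and 396 CPM in HGDMEM, 407, 401 and 297 CPM in LGDMEM, and 235, 305 and 324 CPM in EMEM. All 9 other libraries were above the Plasmax libraries, which differed little among themselves. NEU1 fell with log2 fold changes of −0.43 ± 0.14 against EMEM (adjusted p = 0.0372), −0.78 ± 0.14 against LGDMEM (adjusted p = 0.000737, and −0.92 without LGDMEM 3) and −0.89 ± 0.14 against HGDMEM (adjusted p = 0.000168). HEXA, the alpha subunit of the hexosaminidase that degrades GM2 ganglioside, had 37.7, 37.2 and 53.5 CPM in Plasmax, 20.1, 23.7 and 19.9 CPM in HGDMEM, 28.3, 25.8 and 28.98 CPM in LGDMEM, and 24.8, 30.1 and 35.8 CPM in EMEM. The lowest Plasmax value was above the highest EMEM value by a small margin. HEXA rose with log2 fold changes of 0.63 ± 0.20 against LGDMEM (adjusted p = 0.0310, and 0.66 without LGDMEM 3) and 1.01 ± 0.20 against HGDMEM (adjusted p = 0.00111). The HEXA value against EMEM was 0.50 ± 0.20 (adjusted p = 0.0792).

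GUSB, which encodes beta-glucuronidase and has 10 annotated pseudogenes that could share its reads, had 52.5, 36.8 and 41.8 CPM in Plasmax, 51.9, 58.8 and 54.8 CPM in HGDMEM, 63.4, 44.4 and 57.1 CPM in LGDMEM, and 69.4, 66.2 and 69.8 CPM in EMEM. The Plasmax libraries lay below the EMEM libraries and overlapped those of both DMEM forms. GUSB fell against EMEM with a log2 fold change of −0.65 ± 0.17 (adjusted p = 0.00955). GAA, the acid glucosidase that degrades glycogen in lysosomes, averaged 104 ± 11.5 CPM in Plasmax, 84.7 ± 10.1 CPM in HGDMEM, 90.3 ± 11.5 CPM in LGDMEM and 82.5 ± 3.42 CPM in EMEM. NAGLU, an enzyme of heparan sulphate breakdown, averaged 9.93 ± 2.95 CPM in Plasmax, 14.1 ± 2.22 CPM in HGDMEM, 16.9 ± 3.20 CPM in LGDMEM and 16.0 ± 2.14 CPM in EMEM. Neither gene was called by edgeR, with a smallest adjusted p of 0.0625. DESeq2 called NAGLU against LGDMEM (adjusted p = 0.0495). The call of GLA against LGDMEM was lost without Plasmax 1, Plasmax 3, LGDMEM 1 or LGDMEM 2 and under upper-quartile scaling, the replicate block, a fit that kept rows without a symbol, a fit of only the 2 media compared or limma voom (adjusted p between 0.0504 and 0.212). The call of NEU1 against EMEM was lost without Plasmax 1, Plasmax 2, Plasmax 3, EMEM 2 or EMEM 3 and under library-size scaling (adjusted p between 0.0531 and 0.162). The call of HEXA against LGDMEM was lost without Plasmax 3, LGDMEM 1 or LGDMEM 2 and under a fit of only the 2 media compared (adjusted p between 0.0530 and 0.169). That of GUSB against EMEM was lost without Plasmax 2 (adjusted p = 0.0559).

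Of the 5 genes for lipid-degrading enzymes and their activators, PSAP rose and LIPA fell against each of the 3 other media, and ASAH1 fell against LGDMEM and HGDMEM. The ASAH1 call against LGDMEM was lost without LGDMEM 3, and without some other libraries, while the value stayed negative. LIPA encodes lysosomal acid lipase, which releases cholesterol and fatty acids from the esters of endocytosed lipoproteins. It had 17.7, 11.8 and 15.9 CPM in Plasmax, 44.6, 52.8 and 48.9 CPM in HGDMEM, 35.3, 30.9 and 43.0 CPM in LGDMEM, and 30.6, 22.1 and 37.4 CPM in EMEM. The Plasmax libraries lay below all others. LIPA fell with log2 fold changes of −0.99 ± 0.23 against EMEM (adjusted p = 0.00419), −1.27 ± 0.23 against LGDMEM (adjusted p = 0.000602, and −1.13 without LGDMEM 3) and −1.69 ± 0.22 against HGDMEM (adjusted p = 2.43e-05). PSAP encodes prosaposin, the precursor of the saposins that present sphingolipids to their hydrolases. It had 1333, 1045 and 1049 CPM in Plasmax, 809.8, 767 and 668 CPM in HGDMEM, 707, 729.9 and 919.7 CPM in LGDMEM, and 581, 647 and 796 CPM in EMEM. Plasmax 1 was the highest, and all 3 Plasmax libraries were above the other 9. PSAP rose with log2 fold changes of 0.76 ± 0.14 against EMEM (adjusted p = 0.000912), 0.54 ± 0.14 against LGDMEM (adjusted p = 0.0107, and 0.67 without LGDMEM 3) and 0.61 ± 0.14 against HGDMEM (adjusted p = 0.00372).

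ASAH1, the acid ceramidase that splits ceramide, had 85.5, 77.3 and 85.4 CPM in Plasmax, 118, 131 and 106 CPM in HGDMEM, 98.7, 120.5 and 111 CPM in LGDMEM, and 84.0, 86.0 and 93.2 CPM in EMEM. Its Plasmax and EMEM libraries overlapped, and those of both DMEM forms were higher. ASAH1 fell with log2 fold changes of −0.41 ± 0.13 against LGDMEM (adjusted p = 0.0315, and −0.41 without LGDMEM 3) and −0.52 ± 0.13 against HGDMEM (adjusted p = 0.00707). The ASAH1 value against EMEM was −0.085 ± 0.13 (adjusted p = 0.706). SMPD1, the acid sphingomyelinase, averaged 16.9 ± 3.15 CPM in Plasmax, 16.0 ± 2.44 CPM in HGDMEM, 11.6 ± 5.89 CPM in LGDMEM and 9.48 ± 4.75 CPM in EMEM. PPT1, which removes palmitate from proteins, averaged 72.2 ± 6.42 CPM in Plasmax, 95.2 ± 30.9 CPM in HGDMEM, 79.6 ± 17.2 CPM in LGDMEM and 77.0 ± 16.0 CPM in EMEM, and its 3′ end overlaps exons of CAP1 on the opposite strand. Neither was called, with a smallest adjusted p of 0.112, although SMPD1 against EMEM passed without EMEM 3, at a log2 fold change of 1.32 (adjusted p = 0.0270). The call of ASAH1 against LGDMEM was lost without Plasmax 1, Plasmax 2, Plasmax 3, LGDMEM 2 or LGDMEM 3 and under a fit of only the 2 media compared (adjusted p between 0.0520 and 0.114). That of PSAP against LGDMEM was lost without Plasmax 1 (adjusted p = 0.0701).

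The genes of lysosomal membrane proteins moved in 1 direction, with 3 of the 4 measured called higher against EMEM, 3 against LGDMEM, 2 against HGDMEM and none called lower. Of all genes, 10.0%, 9.48% and 12.8% were called higher in the same order. CD63, a tetraspanin of late endosomes, lysosomes and exosomes, had 609, 688 and 735 CPM in Plasmax, 423, 414 and 512 CPM in HGDMEM, 409.9, 483 and 619 CPM in LGDMEM, and 433, 468 and 492 CPM in EMEM. LGDMEM 3 was above the lowest Plasmax value, and all other libraries were below it. CD63 rose with log2 fold changes of 0.55 ± 0.14 against EMEM (adjusted p = 0.00945), 0.43 ± 0.14 against LGDMEM (adjusted p = 0.0375, and 0.60 without LGDMEM 3) and 0.59 ± 0.14 against HGDMEM (adjusted p = 0.00439). SCARB2, also known as LIMP-2, which carries glucocerebrosidase to lysosomes, had 63.2, 68.6 and 62.2 CPM in Plasmax, 42.4, 41.5 and 39.6 CPM in HGDMEM, 39.9, 43.4 and 56.1 CPM in LGDMEM, and 45.9, 53.6 and 43.97 CPM in EMEM. All 9 other libraries were below the Plasmax libraries. SCARB2 rose with log2 fold changes of 0.48 ± 0.16 against LGDMEM (adjusted p = 0.0420, and 0.63 without LGDMEM 3) and 0.65 ± 0.16 against HGDMEM (adjusted p = 0.00561). The SCARB2 value against EMEM was 0.43 ± 0.16 (adjusted p = 0.0600), just outside the threshold.

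LAMP1 and LAMP2 encode the main glycoproteins of the lysosomal membrane, and a splice form of LAMP2 is the receptor of chaperone-mediated autophagy. LAMP1 had 353, 335 and 354 CPM in Plasmax, 322, 355 and 290.4 CPM in HGDMEM, 264, 289 and 333 CPM in LGDMEM, and 259, 249 and 257 CPM in EMEM. HGDMEM 2 matched the Plasmax libraries, while the EMEM libraries lay well below them. LAMP1 rose against EMEM with a log2 fold change of 0.45 ± 0.12 (adjusted p = 0.0108). The other LAMP1 values were 0.23 ± 0.12 against LGDMEM (adjusted p = 0.171, and 0.33 without LGDMEM 3) and 0.11 ± 0.12 against HGDMEM (adjusted p = 0.539). LAMP2 had 171, 179 and 197 CPM in Plasmax, 147, 146 and 156 CPM in HGDMEM, 124, 125 and 156 CPM in LGDMEM, and 127, 155 and 138 CPM in EMEM. Every Plasmax library was above every other library. LAMP2 rose with log2 fold changes of 0.38 ± 0.13 against EMEM (adjusted p = 0.0398) and 0.43 ± 0.13 against LGDMEM (adjusted p = 0.0216, and 0.55 without LGDMEM 3). The LAMP2 value against HGDMEM was 0.28 ± 0.13 (adjusted p = 0.114). The call of CD63 against LGDMEM was lost without Plasmax 2, Plasmax 3, LGDMEM 1 or LGDMEM 2 and under a fit of only the 2 media compared (adjusted p between 0.0829 and 0.165). The call of SCARB2 against LGDMEM was lost without Plasmax 1, Plasmax 2, Plasmax 3, LGDMEM 1 or LGDMEM 2 and under a fit of only the 2 media compared (adjusted p between 0.0714 and 0.154). SCARB2 against EMEM was called under library-size scaling, with only the media compared, and by DESeq2 (adjusted p = 0.0477, 0.0480 and 0.0469). For LAMP2, the call against EMEM was lost without Plasmax 1, Plasmax 2, Plasmax 3, EMEM 1 or EMEM 3 (adjusted p between 0.0532 and 0.155). For LAMP2, too, the call against LGDMEM was lost without Plasmax 3, LGDMEM 1 or LGDMEM 2 and under a fit of only the 2 media compared (adjusted p between 0.0557 and 0.0893).

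None of the 6 proton pump genes was called in any comparison or setting with Plasmax by edgeR, DESeq2 or limma voom, beside 22.1%, 21.2% and 26.9% of all genes called by edgeR against EMEM, LGDMEM and HGDMEM. At an unadjusted p under 0.05, for which no share of all genes was computed, there were 2 of the 6 against EMEM, 2 against LGDMEM and 0 against HGDMEM. ATP6V1A encodes the ATP-hydrolysing subunit, ATP6V1B2 a non-catalytic subunit beside it, and ATP6V1H regulates the pump. ATP6V0D1 and ATP6V0E1 belong to the membrane sector, and ATP6AP1 is an accessory subunit needed for assembly. Their log2 fold changes ran from 0.14 to 0.66 against EMEM, from −0.084 to 0.41 against LGDMEM (−0.14 to 0.41 without LGDMEM 3) and from −0.14 to 0.17 against HGDMEM. ATP6V1B2 had 163, 160.0 and 143 CPM in Plasmax, 163, 176 and 175 CPM in HGDMEM, 161, 180.1 and 153 CPM in LGDMEM, and 138, 141 and 144 CPM in EMEM. Its Plasmax libraries lay among those of the other media. ATP6V0D1, the subunit farthest from 0 against EMEM at 0.66 ± 0.30 (adjusted p = 0.125), averaged 13.4 ± 2.500 CPM in Plasmax, 13.2 ± 3.76 CPM in HGDMEM, 12.2 ± 2.45 CPM in LGDMEM and 8.52 ± 1.06 CPM in EMEM. ATP6AP1 averaged 74.7 ± 9.13 CPM in Plasmax, 72.8 ± 4.69 CPM in HGDMEM, 56.2 ± 3.73 CPM in LGDMEM and 58.2 ± 11.6 CPM in EMEM. The other levels were 56.6 ± 12.3 CPM in Plasmax and 46.4 ± 4.28 CPM in EMEM for ATP6V1A, 39.2 ± 3.75 CPM in Plasmax and 29.3 ± 7.80 CPM in EMEM for ATP6V1H, and 254 ± 13.5 CPM in Plasmax and 216 ± 17.7 CPM in EMEM for ATP6V0E1, whose 4 annotated pseudogenes could share its reads. The 6 genes together held 593 ± 26.4 CPM in Plasmax, 579.6 ± 36.2 CPM in HGDMEM, 529 ± 23.6 CPM in LGDMEM and 499.4 ± 28.7 CPM in EMEM (SD, n = 3 each).

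Among the autophagy genes none was called lower, and 3 of the 6 were called higher against EMEM, 2 against LGDMEM (3 without LGDMEM 3) and 4 against HGDMEM. The shares of all genes called higher were 10.0%, 9.48% and 12.8% in the same order. GABARAPL1 had the largest rise of the 35 genes against each medium. It encodes a member of the GABARAP family that is linked to lipid on the autophagosome membrane. GABARAPL1 had 45.5, 41.1 and 43.0 CPM in Plasmax, 6.19, 11.9 and 12.3 CPM in HGDMEM, 9.84, 14.7 and 27.4 CPM in LGDMEM, and 17.0, 22.8 and 23.4 CPM in EMEM. All Plasmax libraries were above all others, and the other libraries spread widely, with HGDMEM 1 the lowest and LGDMEM 3 the highest. GABARAPL1 rose with log2 fold changes of 1.03 ± 0.30 against EMEM (adjusted p = 0.0176), 1.31 ± 0.30 against LGDMEM (adjusted p = 0.00435, and 1.80 without LGDMEM 3) and 2.09 ± 0.31 against HGDMEM (adjusted p = 7.80e-05). A close copy, GABARAPL3, is annotated, so the count may be shared with it.

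MAP1LC3B encodes LC3B, the lipid-linked marker of autophagosomes, and has a close copy, MAP1LC3B2, and 1 pseudogene. It had 111, 133 and 134 CPM in Plasmax, 60.6, 61.4 and 69.0 CPM in HGDMEM, 60.6, 91.6 and 144 CPM in LGDMEM, and 58.7, 82.1 and 53.4 CPM in EMEM. The Plasmax libraries lay above all HGDMEM and EMEM libraries, and LGDMEM 3 was the highest of all 12. MAP1LC3B rose with log2 fold changes of 0.96 ± 0.23 against EMEM (adjusted p = 0.00561) and 0.99 ± 0.23 against HGDMEM (adjusted p = 0.00366). Against LGDMEM the value was 0.35 ± 0.23 (adjusted p = 0.293), and without LGDMEM 3 it was 0.72 (adjusted p = 0.0130), which is called. SQSTM1 encodes p62, the receptor that brings ubiquitin-tagged cargo to autophagosomes and is itself degraded by autophagy. It had 377, 396 and 394 CPM in Plasmax, 239, 248 and 244 CPM in HGDMEM, 258, 367 and 364 CPM in LGDMEM, and 238, 232 and 242 CPM in EMEM. LGDMEM 2 and LGDMEM 3 came close to the Plasmax libraries, while LGDMEM 1 was near the HGDMEM and EMEM libraries. SQSTM1 rose with log2 fold changes of 0.71 ± 0.13 against EMEM (adjusted p = 0.000610) and 0.67 ± 0.13 against HGDMEM (adjusted p = 0.000697). The SQSTM1 value against LGDMEM was 0.24 ± 0.13 (adjusted p = 0.203, and 0.31 without LGDMEM 3). Its 3′ end overlaps exons of MRNIP on the opposite strand, and 1 pseudogene is annotated.

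ULK1 encodes the kinase that starts autophagosome formation and is held inactive by mTORC1. It had 73.5, 74.9 and 74.4 CPM in Plasmax, 45.8, 42.5 and 37.9 CPM in HGDMEM, 34.6, 46.6 and 55.7 CPM in LGDMEM, and 44.9, 76.9 and 55.5 CPM in EMEM. The Plasmax libraries lay close together, above all HGDMEM and LGDMEM libraries, and EMEM 2 was higher than any of them. ULK1 rose with log2 fold changes of 0.70 ± 0.20 against LGDMEM (adjusted p = 0.0159, and 0.86 without LGDMEM 3) and 0.82 ± 0.20 against HGDMEM (adjusted p = 0.00453). The ULK1 value against EMEM was 0.32 ± 0.19 (adjusted p = 0.251). WIPI1, which binds the lipid PI3P on forming autophagosomes and whose 3′ end overlaps exons of ARSG, averaged 28.1 ± 7.77 CPM in Plasmax, 35.6 ± 2.05 CPM in HGDMEM, 38.3 ± 17.9 CPM in LGDMEM and 37.4 ± 9.09 CPM in EMEM. UVRAG, a subunit of a Beclin 1 complex, averaged 18.5 ± 0.923 CPM in Plasmax, 16.0 ± 2.36 CPM in HGDMEM, 20.1 ± 5.23 CPM in LGDMEM and 18.3 ± 2.72 CPM in EMEM. Neither was called, with a smallest adjusted p of 0.279. The call of GABARAPL1 against EMEM was lost without Plasmax 1 (adjusted p = 0.0533) or EMEM 1 (adjusted p = 0.0796). That of ULK1 against LGDMEM was lost without LGDMEM 1 (adjusted p = 0.0752).

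Of the nutrient-sensing genes, FLCN fell against EMEM and LGDMEM. FLCN encodes folliculin, which activates the GTPase RagC when amino acids are present and through it directs mTORC1 towards TFEB and TFE3. It had 24.1, 18.8 and 17.2 CPM in Plasmax, 35.1, 23.8 and 27.5 CPM in HGDMEM, 36.9, 33.2 and 39.6 CPM in LGDMEM, and 26.5, 32.8 and 30.5 CPM in EMEM. The highest Plasmax value was above the lowest HGDMEM value, and the Plasmax libraries were below all LGDMEM and EMEM libraries. FLCN fell with log2 fold changes of −0.58 ± 0.20 against EMEM (adjusted p = 0.0484) and −0.87 ± 0.20 against LGDMEM (adjusted p = 0.00508, and −0.81 without LGDMEM 3). The FLCN value against HGDMEM was −0.52 ± 0.20 (adjusted p = 0.0650). RRAGC, the gene of RagC, was low, with 2.68, 11.2 and 5.79 CPM in Plasmax, 5.63, 11.3 and 4.23 CPM in HGDMEM, 10.3, 6.49 and 10.2 CPM in LGDMEM, and 5.58, 9.61 and 5.68 CPM in EMEM. Its libraries spread widely within each medium, and it was not called, with a smallest adjusted p of 0.557. The call of FLCN against EMEM was lost without Plasmax 2, Plasmax 3, EMEM 1, EMEM 2 or EMEM 3 and under upper-quartile scaling, library-size scaling, a fit of only the 2 media compared or limma voom (adjusted p between 0.0531 and 0.159). The value against HGDMEM was called without Plasmax 1 (adjusted p = 0.0390) or HGDMEM 2 (0.0412).

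**Figure D3:**
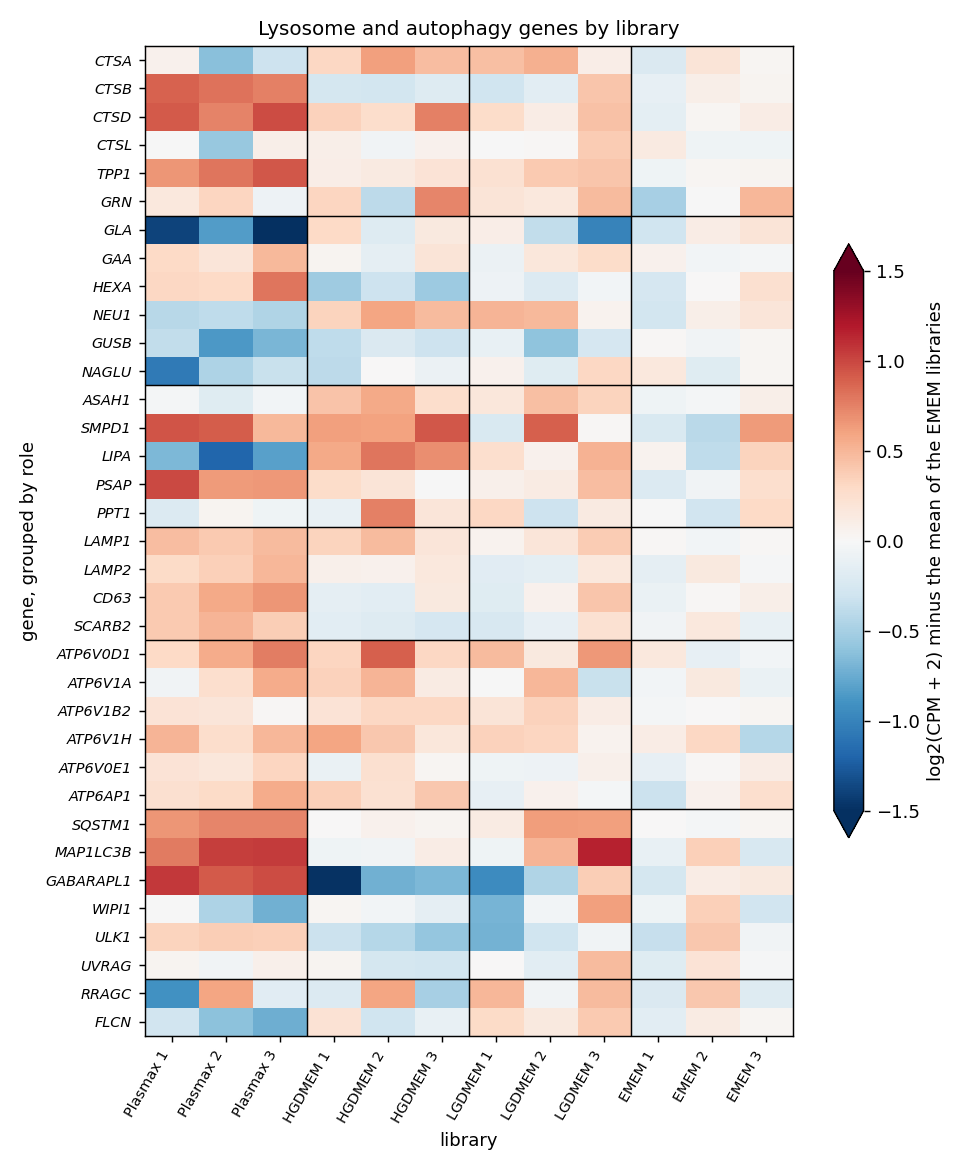
Level of the 35 genes (rows, grouped by role) in the 12 libraries (columns), as log2(CPM + 2) minus the mean of the EMEM libraries, with red for higher and blue for lower and the colours capped at 1.5 in either direction. In all 3 Plasmax columns CTSB, CTSD, TPP1, PSAP, SQSTM1, MAP1LC3B and GABARAPL1 are red and GLA, NEU1 and LIPA blue, with a clear spread among the 3 for GLA, and within LGDMEM the column of LGDMEM 3 is redder than that of LGDMEM 1 for SQSTM1, MAP1LC3B and GABARAPL1.

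Between the 3 conventional media few differences could be told from the spread. None of the 35 genes was called by edgeR in LGDMEM against EMEM, HGDMEM against EMEM or HGDMEM against LGDMEM, where 0.0731%, 0.164% and 0.0640% of all genes were called. At an unadjusted p under 0.05 there were 6, 11 and 4 of the 35. The share of all genes at that looser threshold was not computed, so these counts cannot be set against the shares above. DESeq2 called 1, 0 and 0, the 1 being SQSTM1 (adjusted p = 0.0494), while limma voom called 0 in each. The LGDMEM libraries differed among themselves in the autophagy genes. Summed over the 6 autophagy genes they held 403 to 675 CPM, beside 679 ± 14.7 CPM in Plasmax, 411 ± 3.47 CPM in HGDMEM and 438 ± 39.1 CPM in EMEM (SD, n = 3 each). LGDMEM 1 lay at the level of HGDMEM and EMEM, and LGDMEM 3 at that of Plasmax.

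In LGDMEM against EMEM the log2 fold change of SQSTM1 was 0.48 ± 0.13 (adjusted p = 0.215) and that of MAP1LC3B 0.61 ± 0.23 (adjusted p = 0.514). Without LGDMEM 3 they were 0.40 and 0.24. Without LGDMEM 1 both were called, SQSTM1 at 0.63 (adjusted p = 0.0104) and MAP1LC3B at 0.86 (adjusted p = 0.0473). In HGDMEM against LGDMEM the values were −0.44 ± 0.13 (adjusted p = 0.309) for SQSTM1 and −0.63 ± 0.23 (adjusted p = 0.459) for MAP1LC3B, or −0.36 and −0.26 without LGDMEM 3. Leaving out LGDMEM 1, both were called, at −0.59 (adjusted p = 0.0134) and −0.89 (adjusted p = 0.0314). GABARAPL1 had a log2 fold change of −1.06 ± 0.32 (adjusted p = 0.316) in HGDMEM against EMEM, the farthest from 0 of the 35 genes there, with the lowest value of all 12 libraries in HGDMEM 1.

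The rest of the pathway was read from 7 further lists, of which 169 of 196 genes were measured. Against EMEM 25 of these rose and 15 fell (23.7%), against LGDMEM 22 rose and 15 fell (21.9%; 22 and 11 without LGDMEM 3), and against HGDMEM 25 rose and 17 fell (24.9%), shares close to those of all genes. None was called among the 3 conventional media, where 15, 12 and 12 had an unadjusted p under 0.05 in LGDMEM against EMEM, HGDMEM against EMEM and HGDMEM against LGDMEM. No share of all genes was computed at the unadjusted threshold. The median log2 fold change was 0.11 against EMEM, 0.079 against LGDMEM (0.14 without LGDMEM 3) and 0.090 against HGDMEM. Most values of single genes below are given only where the gene was among the called genes of its list with the largest changes. Where a comparison has no value for a gene, the gene may or may not have been called in it.

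Of 29 other lysosomal hydrolases and cofactors, 4 rose and 4 fell against EMEM, 4 rose and 4 fell against LGDMEM (3 and 2 without LGDMEM 3), and 3 rose and 3 fell against HGDMEM. Called were thus 27.6%, 27.6% and 20.7% of this list, beside 22.1%, 21.2% and 26.9% of all genes. AGA, which splits the bond between sugar and asparagine, averaged 80.7 ± 8.18 CPM in Plasmax, 31.8 ± 2.02 CPM in HGDMEM, 41.8 ± 8.95 CPM in LGDMEM and 37.7 ± 6.15 CPM in EMEM. AGA rose by 1.10 ± 0.18 against EMEM (adjusted p = 0.000301) and 1.34 ± 0.18 against HGDMEM (adjusted p = 3.00e-05) on the log2 scale. IDS, the sulphatase deficient in Hunter syndrome, averaged 19.1 ± 0.656 CPM in Plasmax, 5.71 ± 1.17 CPM in HGDMEM, 6.83 ± 2.59 CPM in LGDMEM and 8.11 ± 3.82 CPM in EMEM. IDS rose by 1.22 ± 0.36 against EMEM (adjusted p = 0.0193), 1.49 ± 0.36 against LGDMEM (adjusted p = 0.00663, and 1.78 without LGDMEM 3) and 1.74 ± 0.36 against HGDMEM (adjusted p = 0.00163). GM2A, the activator protein that HEXA needs for GM2 ganglioside, averaged 23.5 ± 2.39 CPM in Plasmax, 59.4 ± 8.36 CPM in HGDMEM, 54.0 ± 13.6 CPM in LGDMEM and 46.2 ± 4.50 CPM in EMEM. GM2A fell, with log2 fold changes of −0.97 ± 0.19 against EMEM (adjusted p = 0.00160), −1.19 ± 0.19 against LGDMEM (adjusted p = 0.000283, and −1.35 without LGDMEM 3) and −1.33 ± 0.19 against HGDMEM (adjusted p = 5.96e-05), while HEXA rose against LGDMEM and HGDMEM. NPC2, which hands cholesterol from the lysosomal lumen to the membrane, averaged 163 ± 11.9 CPM in Plasmax, 354 ± 14.3 CPM in HGDMEM, 311 ± 21.7 CPM in LGDMEM and 288 ± 6.03 CPM in EMEM. NPC2 had a log2 fold change of −1.11 ± 0.11 (adjusted p = 1.00e-06) against HGDMEM. Its values against EMEM and LGDMEM are not reported here, although its mean in Plasmax was also below the means of these media. The value of AGA against LGDMEM is not reported either, although its mean was higher in Plasmax. A change limited to the comparisons with a value is therefore not shown for NPC2 or AGA. Against LGDMEM, PLA2G15, a lysosomal phospholipase, had 1.12 ± 0.36 (adjusted p = 0.0326, and 1.09 without LGDMEM 3). RNASET2, a lysosomal ribonuclease, had −1.02 ± 0.26 (adjusted p = 0.00960) there, which without LGDMEM 3 became −0.46 (adjusted p = 0.0689). The calls were lost for IDS against EMEM without Plasmax 3, EMEM 1 or EMEM 3 (adjusted p between 0.0508 and 0.0900). They were lost for PLA2G15 without Plasmax 1, Plasmax 3, LGDMEM 1, LGDMEM 2 or LGDMEM 3 and under a fit of only the 2 media compared or limma voom (adjusted p between 0.0506 and 0.145).

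Of 13 genes for sorting hydrolases to lysosomes, 3 rose and 2 fell against EMEM, 2 rose and 3 fell against LGDMEM (2 and 2 without LGDMEM 3), and 2 rose and 2 fell against HGDMEM. As shares of the list these were 38.5%, 38.5% and 30.8%, beside 22.1%, 21.2% and 26.9% of all genes. IGF2R, the large receptor for mannose 6-phosphate on new hydrolases, averaged 409.7 ± 39.2 CPM in Plasmax, 233 ± 31.3 CPM in HGDMEM, 243 ± 41.7 CPM in LGDMEM and 211 ± 25.1 CPM in EMEM. IGF2R rose by 0.96 ± 0.15 against EMEM (adjusted p = 0.000148), 0.75 ± 0.15 against LGDMEM (adjusted p = 0.00129, and 0.83 without LGDMEM 3) and 0.81 ± 0.15 against HGDMEM (adjusted p = 0.000452). SORT1, the sortilin that carries prosaposin and other cargo, averaged 120.1 ± 11.4 CPM in Plasmax, 68.4 ± 6.97 CPM in HGDMEM, 62.3 ± 7.66 CPM in LGDMEM and 75.5 ± 11.9 CPM in EMEM. SORT1 rose by 0.67 ± 0.15 against EMEM (adjusted p = 0.00401), 0.94 ± 0.15 against LGDMEM (adjusted p = 0.000273, and 1.00 without LGDMEM 3) and 0.81 ± 0.15 against HGDMEM (adjusted p = 0.000654). VPS29, a subunit of the retromer that returns such receptors to the Golgi, averaged 48.0 ± 11.0 CPM in Plasmax, 72.6 ± 6.91 CPM in HGDMEM, 74.2 ± 12.0 CPM in LGDMEM and 77.0 ± 13.3 CPM in EMEM. VPS29 had log2 fold changes of −0.68 ± 0.18 against EMEM (adjusted p = 0.0124), −0.63 ± 0.18 against LGDMEM (adjusted p = 0.0206, and −0.67 without LGDMEM 3) and −0.60 ± 0.18 against HGDMEM (adjusted p = 0.0215). NAGPA, which uncovers the mannose 6-phosphate tag, had −0.50 ± 0.15 against LGDMEM (adjusted p = 0.0221, and −0.59 without LGDMEM 3) and −0.92 ± 0.15 against HGDMEM (adjusted p = 0.000184). GNPTG, a subunit of the enzyme that adds it, had 0.60 ± 0.16 (adjusted p = 0.0130) against EMEM. The VPS29 calls were lost against EMEM without Plasmax 1 (adjusted p = 0.0699) or EMEM 3 (adjusted p = 0.0750), against LGDMEM without Plasmax 1, Plasmax 3 or LGDMEM 1 (adjusted p between 0.0593 and 0.107) and against HGDMEM without Plasmax 1, Plasmax 3 or HGDMEM 1 (adjusted p between 0.0584 and 0.113). Those of NAGPA against LGDMEM and of GNPTG were lost without Plasmax 1, Plasmax 3 or LGDMEM 1 (adjusted p between 0.0549 and 0.114) and without Plasmax 1 (adjusted p = 0.0745) or EMEM 1 (adjusted p = 0.0567).

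Of 24 other lysosomal membrane proteins, 4 rose against EMEM, 4 against LGDMEM (5 without LGDMEM 3) and 5 against HGDMEM, and none was called lower. The shares called, 16.7%, 16.7% and 20.8%, were below the 22.1%, 21.2% and 26.9% of all genes. LAPTM4A, a small membrane protein of late endosomes and lysosomes, averaged 1595 ± 88.1 CPM in Plasmax, 964 ± 71.6 CPM in HGDMEM, 962 ± 31.9 CPM in LGDMEM and 1096 ± 137 CPM in EMEM. LAPTM4A rose by 0.54 ± 0.11 against EMEM (adjusted p = 0.00169), 0.73 ± 0.11 against LGDMEM (adjusted p = 0.000134, and 0.76 without LGDMEM 3) and 0.73 ± 0.11 against HGDMEM (adjusted p = 8.87e-05). CLCN7, the chloride and proton exchanger of the lysosome, rose against EMEM, at 0.89 ± 0.29 (adjusted p = 0.0318). SLC15A4, a transporter of histidine and small peptides, and LAPTM4B, a relative of LAPTM4A, rose against LGDMEM, at 0.57 ± 0.20 (adjusted p = 0.0471, and 0.59 without LGDMEM 3) and 0.38 ± 0.11 (adjusted p = 0.0215, and 0.35 without LGDMEM 3). TMEM192 and PIP4P1, a phosphoinositide phosphatase, rose against HGDMEM, at 0.78 ± 0.27 (adjusted p = 0.0419) and 0.68 ± 0.24 (adjusted p = 0.0408). Of these, LAPTM4A in all 3 comparisons kept an adjusted p under 0.05 whichever library was left out. The calls were lost for CLCN7 without Plasmax 1, Plasmax 2, Plasmax 3, EMEM 1 or EMEM 3 (adjusted p between 0.0570 and 0.124), and for LAPTM4B without Plasmax 2, Plasmax 3 or LGDMEM 2 and under a fit of only the 2 media compared (adjusted p between 0.0560 and 0.0647). The SLC15A4 call was lost without Plasmax 2, Plasmax 3, LGDMEM 1, LGDMEM 2 or LGDMEM 3 and under the replicate block, a fit of only the 2 media compared or limma voom (adjusted p between 0.0564 and 0.137). Calls were lost for TMEM192 without Plasmax 2, Plasmax 3, HGDMEM 1, HGDMEM 2 or HGDMEM 3 (adjusted p between 0.0507 and 0.212), and for PIP4P1 without Plasmax 1, Plasmax 2, Plasmax 3, HGDMEM 1, HGDMEM 2 or HGDMEM 3 (adjusted p between 0.0596 and 0.134).

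Of the 13 other pump subunits, some were called, with 2 higher and 3 lower against EMEM, and 1 higher and 3 lower against LGDMEM and against HGDMEM. Their called shares were 38.5% against EMEM, 30.8% against LGDMEM and 30.8% against HGDMEM, beside 22.1%, 21.2% and 26.9% of all genes. ATP6V0E2, an alternative form of the small membrane subunit ATP6V0E1, averaged 224 ± 22.0 CPM in Plasmax, 644 ± 14.4 CPM in HGDMEM, 513 ± 168 CPM in LGDMEM and 428 ± 54.9 CPM in EMEM. ATP6V0E2 fell, with log2 fold changes of −0.94 ± 0.18 against EMEM (adjusted p = 0.00127), −1.20 ± 0.18 against LGDMEM (adjusted p = 0.000161, and −1.45 without LGDMEM 3) and −1.52 ± 0.19 against HGDMEM (adjusted p = 1.02e-05). ATP6V0B, a subunit of the proton-carrying ring, averaged 346 ± 38.5 CPM in Plasmax, 589 ± 9.58 CPM in HGDMEM, 616 ± 86.5 CPM in LGDMEM and 589 ± 14.9 CPM in EMEM. ATP6V0B fell, with −0.77 ± 0.12 against EMEM (adjusted p = 0.000194), −0.83 ± 0.12 against LGDMEM (adjusted p = 9.32e-05, and −0.80 without LGDMEM 3) and −0.77 ± 0.12 against HGDMEM (adjusted p = 0.000129). ATP6AP2, the accessory subunit known as the prorenin receptor, averaged 144 ± 13.4 CPM in Plasmax, 90.2 ± 4.92 CPM in HGDMEM, 98.3 ± 3.73 CPM in LGDMEM and 107 ± 17.5 CPM in EMEM. ATP6AP2 rose by 0.43 ± 0.14 against EMEM (adjusted p = 0.0293), 0.55 ± 0.14 against LGDMEM (adjusted p = 0.00769, and 0.58 without LGDMEM 3) and 0.68 ± 0.14 against HGDMEM (adjusted p = 0.00133). ATP6V1G1, a stalk subunit, rose against EMEM, at 0.43 ± 0.11 (adjusted p = 0.00963). ATP6V1F, a subunit of the rotor, had −0.52 ± 0.12 against LGDMEM (adjusted p = 0.00587, and −0.57 without LGDMEM 3) and −0.60 ± 0.12 against HGDMEM (adjusted p = 0.00147). Its value against EMEM is not reported here. Of these calls, that of ATP6AP2 against EMEM was lost without Plasmax 1, Plasmax 2 or EMEM 1 (adjusted p between 0.0932 and 0.155).

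Of 47 other autophagy genes, 8 rose and 2 fell against EMEM, 8 rose and 2 fell against LGDMEM, and 9 rose and 4 fell against HGDMEM. These shares, 21.3%, 21.3% and 27.7%, were close to the 22.1%, 21.2% and 26.9% of all genes. TP53INP1, a p53 target that binds LC3, averaged 35.2 ± 2.91 CPM in Plasmax, 17.0 ± 0.707 CPM in HGDMEM, 16.6 ± 2.64 CPM in LGDMEM and 15.6 ± 4.94 CPM in EMEM. TP53INP1 rose by 1.16 ± 0.23 against EMEM (adjusted p = 0.00152), 1.08 ± 0.23 against LGDMEM (adjusted p = 0.00277, and 0.96 without LGDMEM 3) and 1.05 ± 0.23 against HGDMEM (adjusted p = 0.00242). CALCOCO2, also called NDP52, a receptor for bacteria and damaged mitochondria, averaged 83.2 ± 2.52 CPM in Plasmax, 46.0 ± 5.82 CPM in HGDMEM, 56.8 ± 14.1 CPM in LGDMEM and 49.2 ± 4.97 CPM in EMEM. CALCOCO2 rose by 0.76 ± 0.18 against EMEM (adjusted p = 0.00479) and 0.86 ± 0.18 against HGDMEM (adjusted p = 0.00147). ATG9A, the scramblase of the vesicles that seed autophagosomes, rose against EMEM, at 0.87 ± 0.17 (adjusted p = 0.00157). BECN1, the Beclin 1 gene, and NBR1, a receptor related to p62, rose against LGDMEM, at 0.66 ± 0.15 (adjusted p = 0.00417, and 0.56 without LGDMEM 3) and 0.62 ± 0.15 (adjusted p = 0.00744, and 0.80 without LGDMEM 3). BNIP3, a mitophagy receptor induced in low oxygen, averaged 60.3 ± 3.45 CPM in Plasmax, 114 ± 35.5 CPM in HGDMEM, 151 ± 78.1 CPM in LGDMEM and 116 ± 10.4 CPM in EMEM. BNIP3 fell, with log2 fold changes of −0.94 ± 0.26 against EMEM (adjusted p = 0.0149), −1.33 ± 0.26 against LGDMEM (adjusted p = 0.00150) and −0.91 ± 0.26 against HGDMEM (adjusted p = 0.0144), and against LGDMEM the value was −0.83 (adjusted p = 0.00490) without LGDMEM 3. CCPG1, a receptor for autophagy of the endoplasmic reticulum, had 1.40 ± 0.50 (adjusted p = 0.0434) against HGDMEM. The calls of BNIP3 were lost against EMEM without Plasmax 2 (adjusted p = 0.0537) or Plasmax 3 (adjusted p = 0.0524) and against HGDMEM without Plasmax 2, Plasmax 3 or HGDMEM 3 (adjusted p between 0.0501 and 0.106). That of CCPG1 was lost without Plasmax 1, Plasmax 2, Plasmax 3, HGDMEM 1, HGDMEM 2 or HGDMEM 3 and under a fit that kept rows without a symbol, DESeq2 or limma voom (adjusted p between 0.0518 and 0.135).

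Of 31 genes of mTORC1 and its nutrient inputs, 2 rose and 3 fell against EMEM, 3 fell against LGDMEM (2 without LGDMEM 3), and 2 rose and 5 fell against HGDMEM. With 16.1%, 9.68% and 22.6% called, the list lay below the 22.1%, 21.2% and 26.9% of all genes. SESN2, which encodes the leucine sensor sestrin 2, an inhibitor of mTORC1, averaged 68.3 ± 7.72 CPM in Plasmax, 22.2 ± 5.82 CPM in HGDMEM, 53.2 ± 23.2 CPM in LGDMEM and 23.0 ± 5.12 CPM in EMEM. SESN2 rose by 1.56 ± 0.28 against EMEM (adjusted p = 0.000693) and 1.62 ± 0.28 against HGDMEM (adjusted p = 0.000348). DDIT4, the stress-induced inhibitor REDD1, averaged 127 ± 11.9 CPM in Plasmax, 44.2 ± 12.8 CPM in HGDMEM, 138 ± 88.0 CPM in LGDMEM and 61.3 ± 22.7 CPM in EMEM. DDIT4 rose by 1.04 ± 0.34 against EMEM (adjusted p = 0.0364) and 1.52 ± 0.35 against HGDMEM (adjusted p = 0.00347). Against LGDMEM the log2 fold change was 0.35 ± 0.27 (adjusted p = 0.386, and 0.44 without LGDMEM 3) for SESN2 and −0.13 ± 0.34 (adjusted p = 0.825, and −0.23 without LGDMEM 3) for DDIT4, neither called. SEC13, a subunit of the GATOR2 complex and of the vesicle coat COPII, averaged 78.6 ± 19.0 CPM in Plasmax, 136 ± 30.0 CPM in HGDMEM, 117 ± 12.8 CPM in LGDMEM and 177 ± 56.9 CPM in EMEM. SEC13 fell, with log2 fold changes of −1.17 ± 0.22 against EMEM (adjusted p = 0.00104) and −0.79 ± 0.22 against HGDMEM (adjusted p = 0.0135). FNIP2, a partner of folliculin, averaged 13.8 ± 1.63 CPM in Plasmax, 24.6 ± 4.88 CPM in HGDMEM, 23.1 ± 7.57 CPM in LGDMEM and 25.4 ± 3.74 CPM in EMEM. FNIP2 fell, with log2 fold changes of −0.88 ± 0.26 against EMEM (adjusted p = 0.0186), −0.75 ± 0.26 against LGDMEM (adjusted p = 0.0458, and −0.64 without LGDMEM 3) and −0.84 ± 0.26 against HGDMEM (adjusted p = 0.0204). LAMTOR5, a subunit of the Ragulator that anchors the Rag GTPases, fell against LGDMEM, at −0.42 ± 0.12 (adjusted p = 0.0214, and −0.40 without LGDMEM 3). The calls were lost for DDIT4 against EMEM without Plasmax 1, Plasmax 2, Plasmax 3, EMEM 1 or EMEM 3 and under a fit that kept rows without a symbol or DESeq2 (adjusted p between 0.0517 and 0.164). They were lost for SEC13 against HGDMEM without Plasmax 1, Plasmax 3 or HGDMEM 1 (adjusted p between 0.0618 and 0.0764), and for LAMTOR5 without Plasmax 2, Plasmax 3 or LGDMEM 2 (adjusted p between 0.0630 and 0.0917). For FNIP2 they were lost against EMEM without Plasmax 2 (adjusted p = 0.0749) or EMEM 2 (adjusted p = 0.0753), against HGDMEM without Plasmax 2 (adjusted p = 0.0801) or HGDMEM 2 (adjusted p = 0.0907) and against LGDMEM without Plasmax 1, Plasmax 2, Plasmax 3, LGDMEM 2 or LGDMEM 3 and under upper-quartile scaling, library-size scaling, the replicate block, a fit of only the 2 media compared or limma voom (adjusted p between 0.0537 and 0.181).

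Of 12 MiT/TFE transcription factors and co-regulators, 2 rose and 1 fell against EMEM, and 3 rose against LGDMEM and against HGDMEM. That was 25% of the list against each medium, beside 22.1%, 21.2% and 26.9% of all genes against EMEM, LGDMEM and HGDMEM. The factors themselves were not called. TFEB had 6.18, 3.03 and 1.86 CPM in Plasmax, 5.81, 7.78 and 5.08 CPM in HGDMEM, 5.05, 4.13 and 5.21 CPM in LGDMEM, and 7.28, 6.23 and 3.58 CPM in EMEM, low levels that overlapped between media. TFEB had log2 fold changes of −0.62 ± 0.48 against EMEM (adjusted p = 0.396), −0.37 ± 0.49 against LGDMEM (adjusted p = 0.638, and −0.31 without LGDMEM 3) and −0.76 ± 0.48 against HGDMEM (adjusted p = 0.270). TFE3 had 20.6, 22.2 and 19.4 CPM in Plasmax, 21.2, 19.5 and 21.8 CPM in HGDMEM, 20.9, 27.5 and 28.8 CPM in LGDMEM, and 19.2, 24.6 and 23.8 CPM in EMEM, which also overlapped. TFE3 had log2 fold changes of −0.12 ± 0.20 against EMEM (adjusted p = 0.725), −0.31 ± 0.20 against LGDMEM (adjusted p = 0.290, and −0.23 without LGDMEM 3) and −0.0053 ± 0.20 against HGDMEM (adjusted p = 0.988), and the sign of the last depends on the scaling used. MITF was not analysed here. PPARGC1A, the coactivator PGC-1 alpha, averaged 33.6 ± 0.631 CPM in Plasmax, 12.2 ± 1.41 CPM in HGDMEM, 15.7 ± 4.59 CPM in LGDMEM and 11.7 ± 3.61 CPM in EMEM. PPARGC1A rose by 1.54 ± 0.26 against EMEM (adjusted p = 0.000408), 1.09 ± 0.26 against LGDMEM (adjusted p = 0.00517, and 1.26 without LGDMEM 3) and 1.47 ± 0.26 against HGDMEM (adjusted p = 0.000390). YWHAB, of a protein family that holds phosphorylated TFEB in the cytoplasm, averaged 779.9 ± 8.33 CPM in Plasmax, 517 ± 15.01 CPM in HGDMEM, 566 ± 29.04 CPM in LGDMEM and 530.0 ± 16.8 CPM in EMEM. YWHAB rose by 0.56 ± 0.10 against EMEM (adjusted p = 0.000555), 0.46 ± 0.10 against LGDMEM (adjusted p = 0.00258, and 0.48 without LGDMEM 3) and 0.59 ± 0.10 against HGDMEM (adjusted p = 0.000223). YWHAG, of the same family, rose by 0.36 ± 0.12 against LGDMEM (adjusted p = 0.0473, and 0.42 without LGDMEM 3) and 0.38 ± 0.12 against HGDMEM (adjusted p = 0.0288). YWHAE, also of it, fell against EMEM, at −0.29 ± 0.10 (adjusted p = 0.0459). The calls were lost for YWHAG against LGDMEM without Plasmax 1, Plasmax 3, LGDMEM 1 or LGDMEM 2 and under a fit that kept rows without a symbol or a fit of only the 2 media compared (adjusted p between 0.0532 and 0.175), for YWHAG against HGDMEM without Plasmax 1, Plasmax 3, HGDMEM 1, HGDMEM 2 or HGDMEM 3 (adjusted p between 0.0551 and 0.123), and for YWHAE without Plasmax 2, Plasmax 3, EMEM 1, EMEM 2 or EMEM 3 and under upper-quartile scaling (adjusted p between 0.0584 and 0.163).

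**Figure D4:**
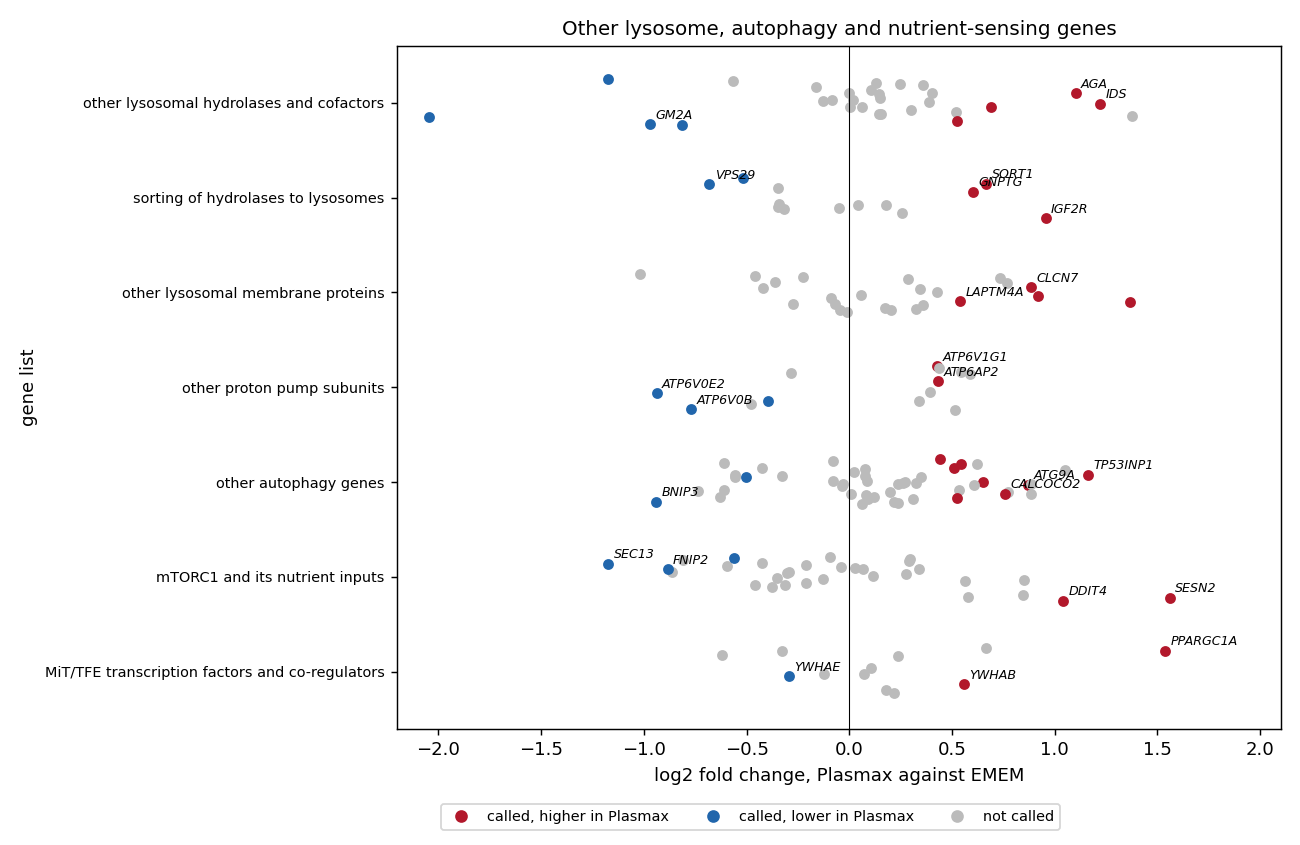
Log2 fold change in Plasmax against EMEM (horizontal axis) of the 169 other pathway genes by list (rows), each point a gene, shifted vertically at random for visibility, coloured by whether its adjusted p is under 0.05 and labelled for the called genes named in the text for this comparison. Called genes lie on both sides of 0 in every list but that of membrane proteins, where the 4 called genes lie to the right.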

How the data were processed

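The authors deposited 1 table of raw, whole-number counts per gene for 12 libraries of HepG2 RNA made with the QuantSeq 3′ kit, per the labels' protocols. Per the submitters' processing notes, the build was hg19 (GRCh37) and the tools included STAR 2.7.5b and featureCounts 1.6.3, with FastQC 0.72, cutadapt 1.16 and limma 3.40.6 also named; their roles, the strand setting and the filter on low counts are not given in the sources used here. The third-highest CPM of every row was at least 2.51 while the fourth could be 0, so the library totals in the table (4131093 to 6015796 counts) are less than the sequenced depth. Of 11546 rows, 601 without a symbol (2.92% to 3.71% of counts) entered neither library sizes nor tests, and 0 columns belonged to other samples.

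Computed here from the deposited counts in R 4.3.3: quasi-likelihood tests in edgeR 4.0.16 with TMM scaling, 1 fit to the 12 libraries, no block, and p-values adjusted by Benjamini and Hochberg over 10945 genes (the low-count filter removed 0; biological coefficient of variation 0.215, with 8 residual and 10.4 prior degrees of freedom). Standard errors (SE) were obtained from the log2 fold change and the F statistic, as their ratio after taking the root of F. Alternatives were DESeq2 1.42.0, limma voom (limma 3.58.1), scaling by RLE, upper quartile or library size, no filter, a filter at a mean of 5 CPM, an adjusted p of 0.01, only the media compared, a replicate block, rows without a symbol kept, and each library left out in turn. Tested on simulated data drawn for Plasmax against EMEM over 10945 genes, the test recovered 72% of 200 genes changed by 2-fold, with 3.36% of its calls false. The changed genes averaged at least 10 CPM, and far fewer genes were changed than were called in the data. These rates therefore need not hold for less abundant genes, for smaller changes or for the data as a whole. No pair of replicates agreed within counting error (lowest chi-square per degree of freedom 7.28).

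The genes and the further lists were chosen with earlier results of these data known. All 35 measured genes may be named; of the further lists, those named are the up to 4 called genes per list and comparison with the largest change and a mean of at least 10 CPM, and TFEB, TFE3 and MITF. Some genes that this rule names are not reported here, though the counts of their lists include them. The columns are numbered 1 to 3 in every medium. Over all genes, libraries of the same number did not deviate together with a correlation above 0.1 for all 3 numbers in any comparison; over 4366 abundant genes (mean log2 CPM above 5) they did for HGDMEM with EMEM (0.186, 0.11 and 0.124) and for HGDMEM with LGDMEM (0.246, 0.165 and 0.21), and nothing in the labels says what a number shares. Gene copies and overlaps were read from the GENCODE 29 annotation, and promoter sequences from RefSeq.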

Additional observations from a re-analysis of the deposited data

How the results depend on the processing

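Of the counts of called genes, those of genes higher against EMEM and of genes higher or lower against HGDMEM stayed within 1.5 times of the values given under every alternative run, and so did all the medians within their spread between libraries. Genes lower against EMEM (5) came to 3 under library-size scaling, 3 at an adjusted p of 0.01 and 2 to 4 with a library left out. Genes higher against LGDMEM (10) came to 3 at an adjusted p of 0.01, 6 with only the 2 media compared and 4 to 11 with a library left out, with 5 without Plasmax 3, 4 without LGDMEM 1, 6 without LGDMEM 2 and 11 without LGDMEM 3. Genes called over the 4 media (19) came to 11 at an adjusted p of 0.01 and 12 to 19 with a library left out, the 12 being without Plasmax 3. Genes higher in LGDMEM against EMEM (0) came to 1 by DESeq2 and 0 to 2 with a library left out, and genes lower in HGDMEM against LGDMEM (0) came to 0 to 2, the 2 in both cases being without LGDMEM 1. The cause of these shifts was not tested, beyond the smaller number of libraries or the stricter threshold.

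With the replicate number as a block, 10 genes were higher and 5 lower against EMEM, 10 and 5 against LGDMEM and 11 and 5 against HGDMEM, 20 were called over the 4 media and 0 in the other 3 comparisons. The call lost under the block was that of GLA against LGDMEM. Of the pairs of a called gene and an alternative, 28 of 255 against EMEM, 48 of 272 against LGDMEM and 6 of 272 against HGDMEM lost the call, and no called value changed sign. These pairs include the fit with no filter, which could lose no call because the filter removed 0 genes.

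Some uncalled values near 0 changed sign when a library was left out. Their log2 fold changes ran from −0.27 to 0.044 for CTSL, −0.13 to 0.37 for GRN, −0.23 to 0.072 for PPT1, −0.083 to 0.13 for UVRAG and −0.72 to 0.28 for RRAGC in Plasmax against EMEM. They ran from −0.31 to 0.00089 for PPT1, −0.019 to 0.27 for ATP6V0D1 and −0.27 to 0.11 for UVRAG in Plasmax against LGDMEM. They ran from −0.30 to 0.014 for CTSL, −0.41 to 0.14 for GRN, −0.014 to 0.22 for SMPD1, −0.12 to 0.28 for ATP6V0D1, −0.23 to 0.084 for ATP6V1A, −0.076 to 0.15 for ATP6V1H, −0.067 to 0.10 for ATP6AP1, −0.74 to 0.40 for RRAGC and −0.058 to 0.039 for TFE3 in Plasmax against HGDMEM. Sign changes from scaling or tool alone were those of ATP6V0D1 (−0.0027 with library-size scaling) and TFE3 (0.00027 with upper-quartile scaling and 0.00043 by limma voom) in Plasmax against HGDMEM. The deposited table, already filtered on low counts, limits what can be said of the least abundant genes, and with 3 libraries per medium a gene that missed the threshold is not shown to be unchanged.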
